A study of Rattus norvegicus with 8 samples.

Results

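The genes of bile acid synthesis and enterohepatic transport were followed in rats given lavender oil (LO) by mouth. They were 10 genes, chosen by name and matched to the array by RefSeq identifier. Each had 1 probe, out of 41012 probes with 36958 different identifiers on the array. They were *Cyp7a1* (NM_012942), *Cyp8b1* (NM_031241), *Cyp27a1* (NM_178847), *Slc10a1* (NM_017047), *Abcb11* (NM_031760), *Slc10a2* (NM_017222), *Fabp6* (NM_017098), *Fgf15* (NM_130753), *Nr1h4* (NM_021745) and *Nr0b2* (NM_057133).

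Male rats, 7 weeks old, received LO at 5 mg/kg in 10% ethanol, placed into the stomach once daily for 13 days. Control rats received 10% ethanol alone, and each group had 6 rats. The sample labels name the strain Wistar, while the growth protocol in the same records names F334 rats. The labels and the methods place the dissection 14 days after treatment, and the legend that outlines the study places it on day 14. Small intestine (sampled about 20 cm from the duodenum), whole spleen and 2 blocks of liver were taken, and total RNA was pooled within each group. Each RNA pool pair, control and LO, was hybridized to 2 rat whole-genome arrays. On replicate 1 the LO pool was labelled with Cy5 and the control pool with Cy3, and on replicate 2 the dyes were swapped. There was 1 pool pair each for small intestine and spleen, and there were 2 for liver (called liver pool 1 and liver pool 2 here), which gave 8 arrays. The sources used here do not say how the liver pools differ. Both arrays of a pair held the same RNA, so that their spread is technical.

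Bile acids are made from cholesterol in hepatocytes. *Cyp7a1* is the rate-limiting enzyme of the classic pathway, *Cyp8b1* the sterol 12α-hydroxylase that directs synthesis toward cholic acid, and *Cyp27a1* the mitochondrial sterol hydroxylase that starts the alternative pathway. *Abcb11* (the bile salt export pump) secretes bile acids into the canaliculus, *Slc10a2* (the apical sodium-dependent transporter) recovers them in the ileum, *Fabp6* binds them inside the enterocyte and *Slc10a1* (the sodium taurocholate cotransporter) returns them from portal blood to the hepatocyte. *Nr1h4* (FXR) is the nuclear receptor that senses bile acids. It induces *Nr0b2* (SHP), a repressor of *Cyp7a1* and *Cyp8b1*, and in the ileum *Fgf15*, a hormone that signals to the liver. The RefSeq table names this last gene Fgf19, with *Fgf15* as a synonym.

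Upstream sequences were shown for the genes on which the results below turn and in which the searched letters occurred. The 250 bases before the transcript start came from RefSeq on the build GRCr8, which held such a window for 6 of the 10 genes (*Cyp8b1*, *Cyp27a1*, *Slc10a1*, *Slc10a2*, *Fabp6* and *Nr0b2*). The letters TCAAGG (the site type bound by *Nr5a2*, also called LRH-1), AGGTCA (a nuclear receptor half-site) and GTTAAT (an HNF1 half-site) were searched on both strands. Capitals mark the matches, printed as they read on the strand of the gene. The windows lie at chr5:151062910-151063159 (plus strand), chr6:106357945-106358194 (minus strand) and chr9:83713282-83713531 (plus strand).
Nr0b2: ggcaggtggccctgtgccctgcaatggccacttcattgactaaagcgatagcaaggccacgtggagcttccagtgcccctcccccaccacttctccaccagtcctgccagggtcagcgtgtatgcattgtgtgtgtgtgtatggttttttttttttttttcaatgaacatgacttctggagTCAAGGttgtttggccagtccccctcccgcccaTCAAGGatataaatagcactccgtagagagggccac
Slc10a1: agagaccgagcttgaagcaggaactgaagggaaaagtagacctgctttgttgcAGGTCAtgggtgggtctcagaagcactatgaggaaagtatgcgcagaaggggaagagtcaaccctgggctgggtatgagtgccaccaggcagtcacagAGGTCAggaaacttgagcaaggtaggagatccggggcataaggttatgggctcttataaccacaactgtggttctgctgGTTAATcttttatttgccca
Cyp27a1: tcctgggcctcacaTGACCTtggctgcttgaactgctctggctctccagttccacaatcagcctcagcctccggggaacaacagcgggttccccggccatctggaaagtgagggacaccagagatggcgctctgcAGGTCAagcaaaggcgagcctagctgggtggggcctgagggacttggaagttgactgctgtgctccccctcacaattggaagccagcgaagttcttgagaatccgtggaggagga

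The LRH-1 type letters stood at 2 places before *Nr0b2*, and 12.4% of the 27457 windows of this kind held them at 1 place or more. The nuclear receptor half-site stood at 2 places before *Slc10a1* and at 2 before *Cyp27a1*, and 13.7% of all windows held it at 1 place or more. For neither motif was the share of windows with 2 places counted. The HNF1 half-site stood at 1 place before *Slc10a1* and at 1 before *Slc10a2*, with 6.46% of all windows. None of the 3 motifs was found before *Cyp8b1* or *Fabp6*. These matches are letters in a window and were not tested as binding sites.

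Marker genes of the tissues were as follows. All 8 hepatocyte markers with a probe, among them *Alb* and *Ttr*, were well above background in every liver pool, with a summed level of 1080000 to 1140000. They were not all particular to liver. In the control intestine pool 6 of the 8 were well above background (summed level 173000), with *Apoa1* at 17.07 and *Apob* at 15.11. In the control spleen pool 5 were (7220). The 5 enterocyte markers were well above background in both intestine pools, with summed levels of 519000 and 481000. In each liver pool 3 of them were too, with summed levels of 130000 to 145000. Of the 4 ileum markers with a probe, *Fabp6* and *Cubn* were well above background in the intestine, and *Slc10a2* and *Fgf15* were not on both arrays. The 4 pancreas acinar markers were well above background in both intestine pools, among them the trypsinogen *Prss1* (log2 level 17.60 in the control and 17.44 in the LO pool). Their summed levels there were 457000 and 401000, against 573 to 612 in the spleen and 3200 to 4290 in the liver pools. Their part in the intestine values below was not tested. The 4 lymphocyte and 3 erythroid markers were well above background in the spleen, where the summed erythroid level was 99400 in the control and 120000 in the LO pool. The lymphocyte marker *Cd3g* was nearly as high in control intestine (13.64) as in control spleen (13.93). The 3 macrophage markers gave summed levels of 28100 to 33400 in the liver pools and 20000 in control spleen. Among them *Cd68* and *Adgre1* were higher in spleen than in liver. In the liver pools 1 of 2 cholangiocyte markers was well above background, and their summed level in the controls was 186 and 191. In control small intestine it was 23900. Of the features of an array, 44.3% to 64.7% were well above background in both channels.

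Liver carried the synthesis genes. Levels were compared between the tissues of the control rats on the normalized log2 scale of single channels, averaged over both dyes of an RNA pool, and were tested with limma over all 8 RNA pools. The errors came from the liver pools, and the other tissues were taken to vary like them. Fold differences hold between tissues for a single gene. Where a tissue was not well above background, an "at least" fold sets it to no less than the lowest signal well above background. Such a fold depends on the background correction and is no lower bound under another one. In whole tissue, fewer cells of a type and less RNA per cell cannot be told apart. Of the 9 genes measured in liver or small intestine, 7 were higher in liver (14.2% of the 30620 probes tested), 1 was lower (15.1%) and 1 did not pass the adjusted p of 0.05. Of the 8 genes measured in liver or spleen, 8 were higher in liver (17.1% of probes, with 21.4% lower). The shares of probes, here and below, are over all probes tested and include probes dim in both tissues. The counts of measured genes leave such genes out. Of the probes called, 48.3% and 44.4% were higher in liver. Without normalization between arrays these shares were 29.0% and 25.6%, and the median of all probes moved to -0.45 and -0.69. With 16 separate channels and the replicate block for dye orientation, 16715 probes in place of 8973 were called between liver and small intestine, 18645 in place of 11801 between liver and spleen and 13149 in place of 5469 between small intestine and spleen. That fit counts both dyes of a pool as separate samples, which makes its p-values too small.

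**Figure D1:**
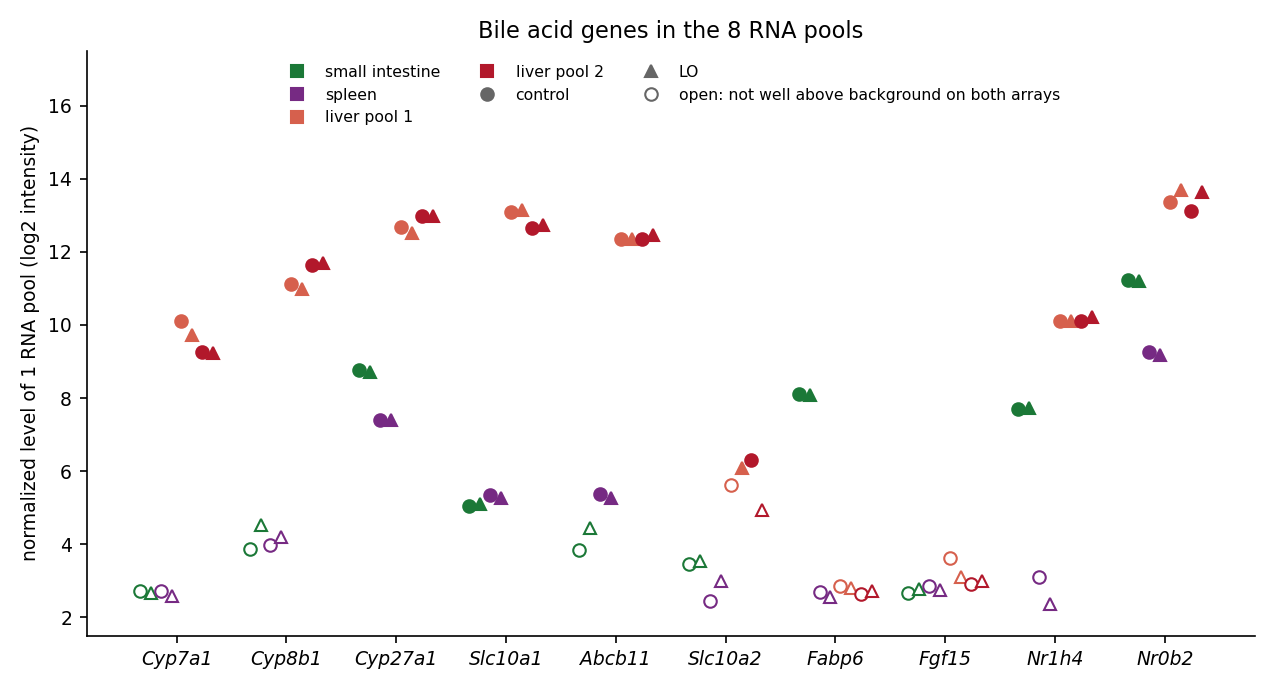
Normalized log2 level (vertical axis) of each of the 10 genes in the 8 RNA pools, with circles for control, triangles for LO and a colour for each tissue and liver pool. Open symbols were not well above background on both arrays. The liver pools of *Cyp7a1*, *Cyp8b1*, *Cyp27a1*, *Slc10a1* and *Abcb11* sit between 9.23 and 13.14 and above every other pool of the same gene, and *Fabp6* is filled in the small intestine pools alone.

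*Cyp7a1* stood at a log2 level of 10.10 in control liver pool 1 and 9.27 in control liver pool 2. In small intestine (2.72) and spleen (2.71) it was not well above background on either array. Liver was at least 124-fold above small intestine (limma, adjusted p = 0.00385) and at least 115-fold above spleen (adjusted p = 0.00325). The control readings of the liver pools were apart. The processed intensities, before normalization between arrays, were 775 and 1109 on the arrays of pool 1. On those of pool 2 they were 452 and 461. Both arrays of a pool held the same RNA, and the difference between the pools was not tested.

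*Cyp8b1* gave 11.12 and 11.63 in the control liver pools, against 3.86 in small intestine and 3.98 in spleen, where the probe was not well above background. Liver was at least 183-fold (adjusted p = 0.00283) and at least 169-fold (adjusted p = 0.0025) higher. For *Cyp8b1* the second liver pool was the higher one, the reverse of *Cyp7a1*. *Cyp27a1*, which is expressed in many tissues, was measured in all 3. Its log2 levels were 12.67 and 12.97 in liver, 8.77 in small intestine and 7.39 in spleen. Liver was 16.5-fold above small intestine (log2 difference 4.04 ± 0.33 SE, adjusted p = 0.00541) and 43.0-fold above spleen (5.43 ± 0.33, adjusted p = 0.00256). The difference of 1.38 ± 0.38 between small intestine and spleen did not pass (adjusted p = 0.0914), but passed with the replicate block (adjusted p = 0.000227) and with an LO term over control and LO pools (0.00198).

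The hepatocyte transporters were also highest in liver. *Slc10a1* was at 13.08 and 12.66 in the control liver pools, 5.06 in small intestine and 5.34 in spleen, well above background in all. It was 226-fold higher in liver than in small intestine (adjusted p = 0.00154) and 185-fold higher than in spleen (adjusted p = 0.00155). The log2 differences were 7.82 and 7.53. Over 11 alternatives they ran from 5.73 to 8.04 and from 5.65 to 7.91. Small intestine and spleen differed by -0.29 ± 0.39, which did not pass (adjusted p = 0.694). *Abcb11* was at 12.36 in both control liver pools and 5.37 in spleen, a 127-fold difference (adjusted p = 0.000873). Its log2 difference from spleen was 6.99, and ran from 5.13 to 7.09 over 11 alternatives. In small intestine it was not well above background (3.83), with liver at least 369-fold higher (adjusted p = 0.00071). Over 11 alternatives the log2 difference of small intestine minus spleen ran from -1.72 to -0.35. In the main fit spleen was at least 2.9-fold above small intestine (adjusted p = 0.033). Without the LO pools (control pools only) this last adjusted p was 0.112, without replicate 1 it was 0.0677, and after normexp and loess it was 0.167.

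The ileal genes were divided. *Fabp6* was at 8.11 in control small intestine and was not well above background in any liver or spleen pool. It was at least 37.3-fold higher in small intestine than in liver (adjusted p = 0.00157) and at least 38.5-fold higher than in spleen (adjusted p = 0.00461). *Slc10a2* was not well above background in control small intestine (3.46) or spleen (2.45). In control liver it was at 5.63 in pool 1, where 1 of 2 arrays was well above background, and at 6.32 in pool 2. Liver was at least 8.74-fold above spleen (adjusted p = 0.022, and 0.0866 without replicate 1). The difference of 2.52 ± 0.63 from small intestine did not pass (adjusted p = 0.0567). It passed with the replicate block (adjusted p = 0.0409), with control pools only (0.0273), with an LO term over control and LO pools (0.00417) and, at a value of 0.70, after normexp and loess (0.035). Over 11 alternatives the adjusted p ran from 0.000288 to 0.236. The *Slc10a2* signal varied with the dye, as described below. *Fgf15* was not well above background in any channel, with processed intensities of 3.97 to 14.4, and was left out of the tests.

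Both nuclear receptors were found in liver and small intestine. *Nr0b2* was at 13.36 and 13.13 in the control liver pools, 11.22 in small intestine and 9.26 in spleen. Liver was 4.06-fold above small intestine (2.02 ± 0.24, adjusted p = 0.0119) and 15.8-fold above spleen (3.99 ± 0.24, adjusted p = 0.00258). Small intestine was 3.9-fold above spleen (1.96 ± 0.28, adjusted p = 0.0241), a difference that did not pass with the control pools alone (adjusted p = 0.0674). *Nr1h4* was at 10.10 in both control liver pools and 7.70 in small intestine, a 5.28-fold difference (2.40 ± 0.22, adjusted p = 0.00706). In spleen it was not well above background (3.10), with liver at least 113-fold (adjusted p = 0.000873) and small intestine at least 21.4-fold higher (adjusted p = 0.0053). Between small intestine and spleen 3 of the 10 genes were called higher in small intestine (9.07% of probes), 1 lower (8.79%), 2 did not pass and 4 were dim in both. By the slide codes of the scanner files the arrays lay on 3 slides, 1 for each tissue, so that slide and tissue cannot be told apart. After normexp correction with an offset of 50, which lifts dim signals, differences against dim tissues were smaller (*Cyp7a1* in liver minus small intestine 3.15 in place of 6.97) but passed the test for the 7 genes higher in liver and for *Fabp6*.

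The wider pathway showed the same lean toward liver. Of 50 genes on a list of synthesis, transport and regulation, 41 had a probe named in RefSeq. Without the 10 genes above, 31 were measured in liver or small intestine, of which 19 were higher in liver (14.2% of all probes tested), 3 were lower (15.1%) and 9 did not pass. Their median log2 difference was 1.38, against a median of 0 over all probes tested. Of 29 measured in liver or spleen, 24 were higher in liver (17.1% of all probes) and 2 lower (21.4%), and the median was 5.04 against -0.10 over all probes. With the 10 genes included, 12 of 15 synthesis genes and 7 of 11 hepatic transporters were higher in liver than in small intestine, as were 7 of 12 regulators, against the same 14.2% of all probes. The list was made with earlier results of these arrays known.

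The 5 largest differences in favour of liver over small intestine were in *Slc27a5* (bile acyl-CoA synthetase; at least 7770-fold, adjusted p = 0.000653), *Baat* (which conjugates bile acids to glycine or taurine; at least 2720-fold, adjusted p = 0.000803), *Acox2* (peroxisomal side chain oxidation; at least 806-fold, adjusted p = 0.000695), *Slco1a4* (an organic anion uptake transporter; at least 774-fold, adjusted p = 0.000695) and *Akr1d1* (the 5β-reductase; at least 601-fold, adjusted p = 0.00131). None of these 5 was well above background in control small intestine. Besides *Fabp6*, the genes called higher in small intestine were *Abcg8* (a sterol half-transporter; at least 11.6-fold, adjusted p = 0.0128), *Gpbar1* (the membrane bile acid receptor; 5.6-fold, adjusted p = 0.00853) and *Ch25h* (cholesterol 25-hydroxylase; 4.04-fold, adjusted p = 0.0261). In control liver *Abcg8* was well above background on 0 of 4 arrays, and *Gpbar1* and *Ch25h* on 1 of 4 each. The folds of these genes thus rest on dim liver signals. *Abcg5*, also on the list, was at 9.94 in control liver and 10.73 in control small intestine, and did not pass (limma, adjusted p = 0.0728).

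**Figure D2:**
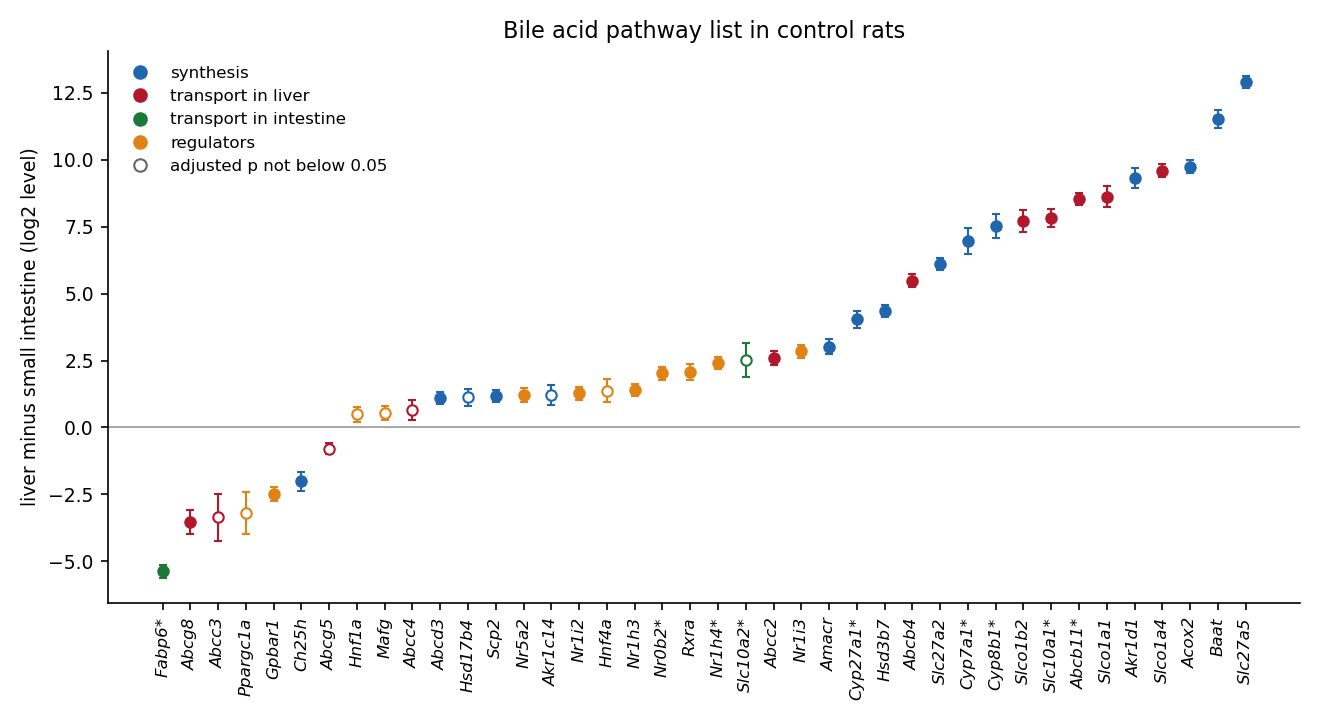
Difference in log2 level between control liver and control small intestine (vertical axis, ± SE from limma) for the 40 measured genes of the pathway list, in rising order and coloured by role. Open symbols have an adjusted p not below 0.05, and an asterisk marks the 10 genes followed here (9 of which were measured). *Fabp6* is lowest at -5.37 and *Slc27a5* highest at 12.92.

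The genes that varied most like those followed here over the 8 RNA pools were read from log2 levels. The 3 nearest to *Nr0b2* were *Ide* (Pearson r 0.9982), *Abcf3* (0.9977) and *Eci2* (0.9975). *Cyp7a1* was nearest to *Ahcy* (0.9998), *Os9* (0.9996) and the pathway gene *Akr1d1* (0.9995), and *Nr1h4* to *Aspg* (0.999), *Spink1l* (0.9987) and *Srr* (0.9985). For *Fabp6* these were *Bcas1*, *Nmu* and *Cuzd1* (each 0.9999), for *Abcb11* *Gfra1*, *C1rl* and *Itih3* (0.9992 to 0.9995), for *Slc10a1* *Palmd*, *Fabp7* and *Ptms* (each 0.9998) and for *Cyp27a1* *Osgin1*, *Mtarc2* and *Mlycd* (0.9996 to 0.9998). *Slc10a2* had lower values, the nearest being *Ppib* (0.9774), *Mapt* (0.9753) and *Nfyb* (0.9731). The 8 pools fall into 3 tissues, and the pools of a tissue share a slide and those of a pair share arrays, so that these values mainly describe the order of the tissues.

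The second question was the response to LO. Of the 10 genes 9 passed the filter on low signals, and *Fgf15* did not. *Nr0b2* was the gene of the 10 with the highest mean LO over control in the liver, and was higher with LO on all 4 liver arrays. In liver pool 1 its processed intensity went from 10460 in control to 12650 in LO on array 1 and from 10570 to 14030 on array 2. In liver pool 2 it went from 8682 to 11880 and from 7913 to 11580. The LO channel exceeded the control channel on every array, by 0.27, 0.41, 0.45 and 0.55 on the log2 scale. The mean of the 2 pools was 0.42 ± 0.07 (SE, 95% interval 0.13 to 0.71), a fold change of 1.34.

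This change did not pass the test across all probes. Its unadjusted limma p was 0.0227 and its adjusted p 0.83, and in the liver 0 of 30620 probes passed the adjusted threshold (0.0%), with 1779 below an unadjusted p of 0.05 (5.81%). The adjusted p of *Nr0b2* ran from 8.76e-05 to 1 over 12 alternatives, while the log2 value stayed between 0.34 and 0.50. It passed in 1 of them, normexp background correction with loess, in which 91 probes (0.297%) were called higher and 59 (0.193%) lower in the liver. With the replicate block the adjusted p was 0.672. Where LO was in Cy5 the ratio of *Nr0b2* was 1.21 and 1.37, below the cut-off of 1.5 in the methods of the study. The lowest of the 4 liver values was at least as high as that of *Nr0b2* in 41 probes (0.134%), a count made after its values were seen.

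In the other tissues the *Nr0b2* values lay near 0. On the intestine arrays its values were -0.01 and -0.03, with a mean of -0.02 ± 0.10 (95% interval -0.42 to 0.39). On the spleen arrays they were -0.18 and 0.03, with a mean of -0.08 ± 0.10 (-0.48 to 0.33). The LO effect was 0.44 ± 0.13 higher in liver than in small intestine and 0.50 ± 0.13 higher than in spleen. Neither difference passed (limma, adjusted p = 0.993 and 1, unadjusted p = 0.0636 and 0.0498).

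Of the 9 genes tested in the liver, *Nr0b2* and *Nr1h4* were above 0 on all 4 arrays, against 3.18% of all probes, and *Cyp7a1* was below 0 on all 4, against 2.95%. Among the 16326 probes well above background on all liver channels these shares were 4.61% and 4.15%. For *Nr1h4* the 4 values lay between 0.00 and 0.13, with a mean of 0.06 ± 0.06 (adjusted p = 0.865). For *Cyp7a1* they were -0.22 and -0.52 in pool 1 and -0.01 and -0.08 in pool 2. Its mean was -0.21 ± 0.12 (95% interval -0.69 to 0.27, adjusted p = 0.841). Pool 1 alone carried most of this value: the mean was -0.37 in pool 1 and -0.04 in pool 2.

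**Figure D3:**
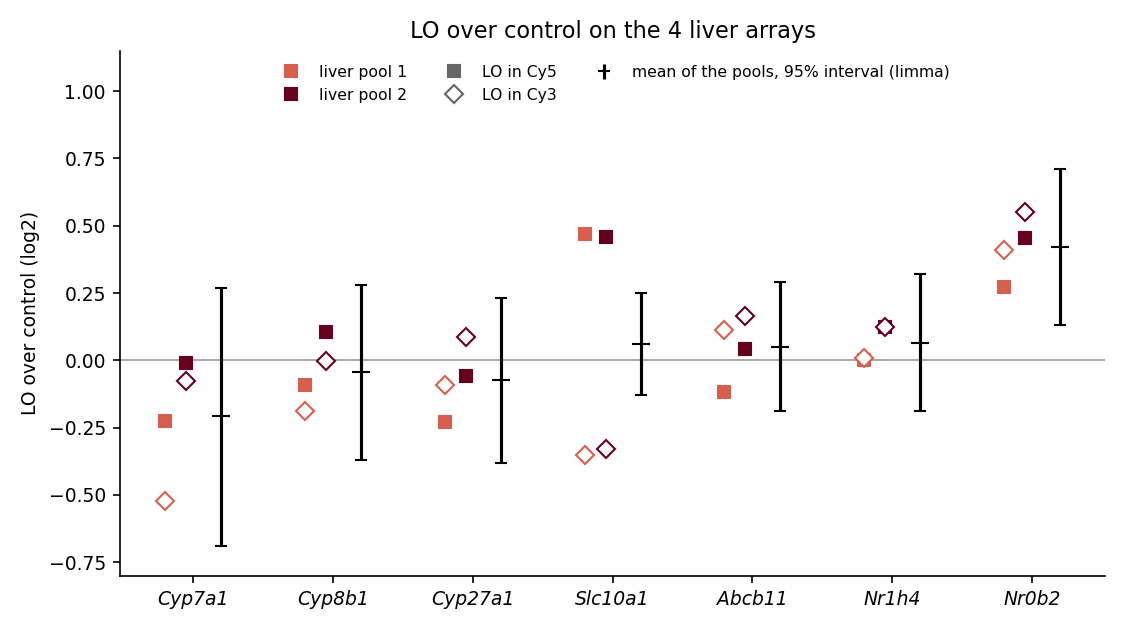
Log2 LO over control (vertical axis) of the 7 genes well above background in all liver channels, on each of the 4 liver arrays (squares with LO in Cy5, diamonds with LO in Cy3, lighter for pool 1 and darker for pool 2), with the mean of the pools and its 95% interval from limma. The 4 *Nr0b2* values sit between 0.27 and 0.55, the 4 *Cyp7a1* values between -0.52 and -0.01, and the *Slc10a1* values on both sides of 0 according to dye.

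*Cyp8b1*, *Cyp27a1* and *Abcb11* did not move in one direction in the liver. *Cyp8b1* gave -0.09 and -0.19 in pool 1 and 0.11 and 0.00 in pool 2, with a mean of -0.04 ± 0.08 (95% interval -0.37 to 0.28). *Cyp27a1* gave -0.23 and -0.09 in pool 1 and -0.06 and 0.09 in pool 2, with a mean of -0.07 ± 0.08 (-0.38 to 0.23). *Abcb11*, the export pump, gave -0.12 and 0.11 in pool 1 and 0.04 and 0.16 in pool 2, with a mean of 0.05 ± 0.06 (-0.19 to 0.29). Their adjusted p-values were 0.924, 0.87 and 0.884.

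The 2 sodium-dependent transporters turned with the dye. *Slc10a1* gave 0.47 in pool 1 and 0.46 in pool 2 where LO was in Cy5, and -0.35 and -0.33 where LO was in Cy3. The mean of the pools was 0.06 ± 0.05 (95% interval -0.13 to 0.25, adjusted p = 0.843). For *Slc10a1* the dye orientation thus moved a single array by 0.41 in pool 1 and 0.40 in pool 2, more than the mean change with LO. With the arrays of LO in Cy3 alone the value was -0.34 (adjusted p = 0.205).

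*Slc10a2* turned further. In liver pool 1 it gave 1.65 and -0.73, and in liver pool 2 0.42 and -3.18, each pair listed with LO in Cy5 first. In the last case the LO channel, in Cy3, read 8.42 and was not well above background, while control in Cy5 read 76.2. In small intestine the values were 1.79 and -1.63, with 1 of 4 channels well above background. The higher channel was Cy5 on all 4 liver arrays and on both intestine arrays. The half-difference between dye orientations ran from 0.776 to 1.799 over the 4 pairs. The mean in liver was -0.46 ± 0.62 (95% interval -2.91 to 1.98), which gives no usable value for LO.

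**Figure D4:**
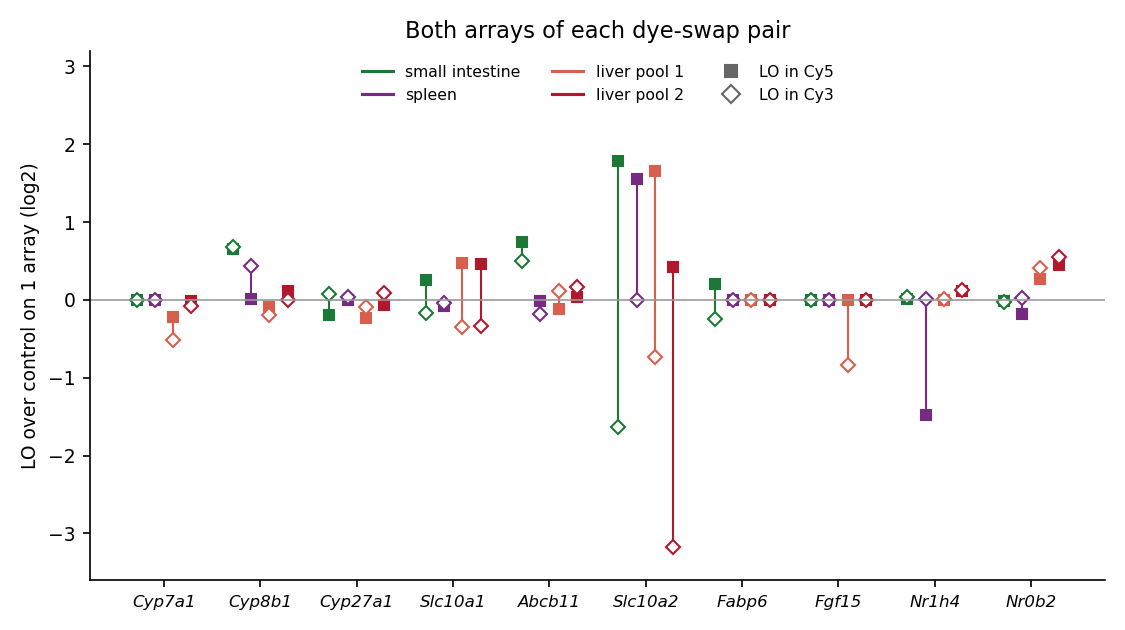
Log2 LO over control (vertical axis) on both arrays of each dye-swap pair for the 10 genes, with squares where LO was in Cy5 and diamonds where it was in Cy3, joined by a line and coloured by pair. Long lines across 0 mark a value that turned with the dye, from 1.79 to -1.63 for *Slc10a2* in small intestine, while the *Nr0b2* liver pairs lie above 0 on both ends.

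The arrays as a whole behaved in the same way. Across 30620 probes, log2 LO over control on the arrays of a pair correlated at -0.632 in small intestine, -0.597 in spleen and -0.721 in both liver pools, although both held the same RNA. Averaging the pair cancels this dye effect where it is equal and opposite on both arrays. For dim signals a part of it can stay in the mean. *Slc10a2* gave pair means of 0.457 and -1.377 in liver pool 1 and liver pool 2, with half-differences of 1.189 and 1.799. The pair means of liver pool 1 and liver pool 2 correlated at 0.04 across probes.

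In the small intestine *Cyp8b1* and *Abcb11* gave positive values from dim signals. The *Cyp8b1* intensity went from 21.3 in control to 33.5 in LO on array 1 and from 12.2 to 19.5 on array 2, or by 0.65 and 0.68 on the log2 scale. That of *Abcb11* went from 15.6 to 25.9 and from 16.5 to 23.3, or by 0.74 and 0.50. In each gene 1 of 4 channels was well above background, namely LO on array 1. The mean values were 0.66 ± 0.11 for *Cyp8b1* and 0.62 ± 0.09 for *Abcb11*. Their unadjusted limma p-values were 0.0228 and 0.0141, and both adjusted p-values were 1. These were 2 of the 9 genes tested in this tissue below an unadjusted p of 0.05, against 3.94% of all probes, and 0.0% of probes passed the adjusted threshold. The errors behind these p-values came from the liver pools, where both genes were well above background in all channels. The spread between pools at these dim intestine signals was not measured, so that the count shows no excess of responses.

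Both genes exceeded the cut-off ratios of the methods on both arrays only where the P threshold of the software was left out, as did 156 features (0.36%). With that threshold 5 features (0.0115%) were called up and 4 (0.00923%) down, and neither gene was among them. The P values were 0.0846 and 0.363 for *Cyp8b1*, and 0.0768 and 0.357 for *Abcb11*. The acinar marker sum was lower in the LO pool of this tissue than in the control pool, as given above. So were the hepatocyte, enterocyte, ileum and cholangiocyte sums, while the lymphocyte, erythroid and macrophage sums were higher. The part of these differences in the *Cyp8b1* and *Abcb11* values was not tested.

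*Fabp6*, the binding protein with a clear signal in the small intestine, gave 0.20 and -0.24 on the 2 arrays, from intensities of 343 and 393 and of 329 and 279 in control and LO. The mean was -0.02 ± 0.07 (95% interval -0.30 to 0.25, adjusted p = 1). *Nr1h4* gave 0.01 and 0.04 (mean 0.02 ± 0.09, -0.33 to 0.38) and *Cyp27a1* -0.19 and 0.07 (mean -0.06 ± 0.11, -0.49 to 0.37). *Slc10a1* gave 0.25 and -0.17 (mean 0.04 ± 0.07).

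In the spleen none of the 9 genes tested passed the adjusted p. *Nr1h4* gave -1.48 and 0.01 there (mean -0.73 ± 0.09), with none of its 4 channels well above background. Its unadjusted limma p was 0.011 and its adjusted p 1. It was the 1 gene of 9 below an unadjusted p of 0.05 (4.26% of probes), and 0.0% of probes passed after adjustment. The error of *Nr1h4* came from the liver pools, where all its channels were well above background, and does not measure the spread at these spleen signals. *Cyp27a1* gave 0.00 and 0.04 (mean 0.02 ± 0.11), *Slc10a1* -0.08 and -0.04 (-0.06 ± 0.07) and *Abcb11* -0.01 and -0.18 (-0.10 ± 0.09). *Cyp8b1* (0.01 and 0.43) and *Slc10a2* (1.55 and 0) had no channel well above background in the spleen. The deposited ratio was exactly 1 on every array for *Cyp7a1* in spleen and small intestine and for *Fabp6* in spleen and liver, where both channels were dim. Errors for small intestine and spleen, which had 1 pool pair each, were taken from the 2 liver pools.

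List genes without a probe named in RefSeq were not tested. *Cyp46a1* was among these, and the study lists it with the top up-regulated molecules of small intestine. Of the pathway list, 0 of the 40 genes tested passed the adjusted p for LO in any tissue. Below an unadjusted p of 0.05 were 4 in small intestine (3.94% of all probes), 4 in spleen (4.26%) and 1 in liver (5.81%), the last being *Nr0b2*. Most of those in small intestine and spleen were dim. In small intestine they were *Slc27a5* (0 of 4 channels well above background), *Cyp8b1* and *Abcb11* (1 of 4 each) and *Abcc4* (3 of 4). In spleen they were *Nr1h4*, *Slc27a5* and *Baat* (0 of 4 each) and *Abcc4*. Their errors came from the liver pools. In the liver 3 genes were above 0 on all 4 arrays (*Nr0b2*, *Nr1h4* and the canalicular transporter *Abcc2*, 0.08 to 0.21), against 3.18% of all probes, and 3 were below 0 (*Cyp7a1*, *Slc27a5* and *Baat*), against 2.95%. The list median was -0.03 in liver against 0 over all probes. The dimmer of the 2 probes of *Slc27a5* exceeded the ratio cut-offs in the spleen without the P threshold (0.399% of features up), at 1.32 and 0.59 with none of its 4 channels well above background. The other probe gave -0.18 and 1.07 there and did not.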

How the data were processed

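Tissue RNA pools were measured on Agilent arrays with 2 dyes. The authors extracted the images with Agilent Feature Extraction (11.0.1.1, per the processing notes of the submitters). The log10 ratios of Cy5 over Cy3, the signal intensity values (background-subtracted and dye-normalized by LOWESS) and the P-values of its error model were used as deposited. Where neither channel was above background the deposited log10 ratio can be exactly 0. The series value table gave log10 ratios that differed only where the deposited log10 ratio was exactly 0 (48537 of 48537 differing features, tolerance 1e-05). The array design names genome build rn4, and no coordinates were taken from it. Gene names came from the RefSeq table through identifiers (10768 of 41012 probes).

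Log10 ratios were turned to log2 LO over control, copies of a probe and both arrays of a pair were averaged, and limma (3.58.1, R 4.3.3) was fitted with 1 coefficient per tissue and Benjamini-Hochberg adjustment. The fit had 1 residual degree of freedom, from the liver pools, and a prior of 1.2. For tissue levels, processed signals were Aquantile-normalized and averaged per RNA pool, with 6 groups and 2 residual degrees of freedom. The 34 features flagged as non-uniform were left out. The filter kept the 30620 of 40979 probes that were well above background on 2 or more arrays, in either channel. A dim group was set to at least the lowest signal well above background for "at least" folds. The number of arrays limits the precision, and p-values measure the spread between pools, which may be technical. The replicate number marks dye orientation. Deviations of arrays with the same number in different pairs correlated at 0.554 or more, and a block for it was an alternative.

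The cut-offs of the methods (ratio at least 1.5, or at most 0.75 with dyes swapped, with the P of the software below 0.01 on every array) were counted. The other alternatives were a stricter or no P threshold, symmetric cut-offs, no flag filter, each replicate or liver pool left out, normexp (offset 50) with loess, other normalizations, the value table, no or stricter brightness filters, unaveraged features and ratios of 1 as missing. The 10 genes were all named. Of the pathway list, genes past the LO test or the cut-offs and the 5 largest tissue differences each way were named, and for each gene measured the 3 most like it (those of *Cyp8b1* are not reported here). Members and lists were chosen with earlier results of these data known. The limma fits were tested on simulated data. Python 3.11.15, pandas 2.3.3 and matplotlib 3.10.9 were used.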

Additional observations from a re-analysis of the deposited data

How the results depend on the processing

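Each tissue comparison rested on few RNA pools, and the spread came from 1 or 2 residual degrees of freedom. Ratios of dim signals, and tissue folds against dim tissues, depend on background correction. For LO, 0 probes passed in each tissue. Normexp and loess gave 32 in small intestine, 105 in spleen and 150 in liver, and bright probes alone gave 2 in liver. The fit of 8 arrays gave 1 in small intestine, both with and without the replicate block, and the block changed no other LO call. The cause was not tested. Each replicate or liver pool left out gave 0 probes in each tissue.

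Features past the cut-offs of the methods numbered 9 in small intestine, 7 in spleen and 4 in liver. Without the P threshold they numbered 309, 239 and 20. With P below 0.001 spleen had 1 and liver 2. Liver pool 1 alone gave 9 and liver pool 2 alone 17. Leaving out a replicate, which leaves 1 dye orientation, gave 446 to 1027 in small intestine, 297 to 722 in spleen and 507 to 636 in liver.

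Probes called between tissues numbered 8973 (liver and small intestine), 11801 (liver and spleen) and 5469 (small intestine and spleen). An LO term over control and LO pools gave 19870, 21479 and 16038. The replicate block with 16 channels gave 16715, 18645 and 13149, and of the tissue differences of the 10 genes it turned only those of *Cyp27a1* and *Slc10a2* named above into calls. Control pools only gave 3598 for small intestine and spleen. Leaving out a replicate or a liver pool gave 6876 to 25935, 9346 to 26732 and 3848 to 23562. The fits without a liver pool count control and LO pools of a tissue as replicates, which raises the residual degrees of freedom. In these fits *Cyp27a1* (1.34) and *Slc10a1* (-0.23) passed between small intestine and spleen, as did *Slc10a2* between liver and small intestine.

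No gene of the 10 that passed a tissue test turned its direction. For LO, values near 0 turned sign when a replicate or a liver pool was left out. The ranges in liver were -0.14 to 0.05 for *Cyp8b1*, -0.16 to 0.01 for *Cyp27a1*, -0.34 to 0.46 for *Slc10a1* and -0.04 to 0.14 for *Abcb11*. In small intestine they were -0.19 to 0.07 for *Cyp27a1*, -0.17 to 0.25 for *Slc10a1* and -0.24 to 0.20 for *Fabp6*. In spleen they were 0 to 0.04 for *Cyp27a1* and -0.18 to 0.03 for *Nr0b2*. After normexp and loess, *Slc10a1* in small intestine gave 0 and *Fabp6* 0.05.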
